A study of Mus musculus with 2 samples.

Results

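The genes described here encode the adaptors, kinases and ubiquitin ligases that carry the signal of Toll-like receptor 4 (TLR4) from the membrane into the cell. They are 10 genes, chosen by name: Myd88, Tirap, Ticam1, Ticam2, Irak2, Irak3, Irak4, Traf6, Traf3 and Tollip. They were matched by gene symbol to 10 of the 55536 annotated genes in the deposited tables. No measured value was a criterion of the choice, but it was made with earlier results of these data known. Total RNA was sequenced after ribosomal RNA depletion from the nucleoplasmic fraction of bone marrow-derived macrophages (BMDM) of C57BL/6J mice. All cells had received lipid A, the membrane anchor of bacterial lipopolysaccharide, at 100 ng/ml for 12 h, then a washout of 12 h, then lipid A again at 100 ng/ml for 25 min. This was the study's 1 group, with 2 biological replicates, and no genetic change is given for the mice.

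Several features of the design limit what can be read from these libraries. No untreated, singly treated or cytoplasmic sample was analysed here, so no value below measures an effect of lipid A or of the second dose. Both libraries name the same donor entry, and nothing in the labels says that they came from separate animals, so their spread may reflect technical variation alone. Library preparation started from 500 ng of RNA for replicate 1 and from 1 µg for replicate 2, and this difference cannot be told apart from any other difference between the replicates. The sex and age of the mice are not given. With 2 libraries, an exact two-sided sign-flip test of a difference within libraries cannot go below p = 0.5, so differences are given with their spread and with no p-value.

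TLR4 signals through adaptor pairs. At the plasma membrane the sorting adaptor TIRAP recruits MyD88, whose death domain assembles with IRAK4 and then IRAK1 or IRAK2 into the Myddosome, and this complex engages the ubiquitin ligase TRAF6 to activate NF-kB and MAP kinases. From endosomes the sorting adaptor TRAM, encoded by Ticam2, recruits TRIF, encoded by Ticam1, which uses TRAF3 to reach the kinases that activate IRF3 and the type I interferon genes. IRAK-M, encoded by Irak3, and Tollip are known as negative regulators of the MyD88 arm, and IRAK-M is known for its part in endotoxin tolerance, the reduced response of macrophages to repeated exposure.

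Nuclear RNA holds unfinished and intron-retaining transcripts as well as mRNA, and the annotation lists such transcripts for most of these genes. Of the 43 annotated transcripts, 27 are protein-coding, 9 are classed as retained-intron and the remaining 7 belong to other noncoding classes. Reads over an intron from unfinished RNA and from a retained-intron transcript cannot be told apart here. The shares given here and below may therefore hold both. The clearest case was Myd88-203, the intron-retaining transcript of Myd88, which was given 33.7% and 31.5% of the gene's expected counts in replicates 1 and 2. Compared with the 6-exon coding transcript Myd88-201, it keeps the whole of intron 2 (389 bases, GRCm38 chr9:119338187-119338575) and the whole of intron 3 (160 bases, GRCm38 chr9:119337846-119338005). Together these 549 bases make up 22.3% of its 2458 bases. The shorter of these introns is shown because it separates the transcripts that split the gene's reads. It is printed 5′ to 3′ on the minus strand, read from the GRCm38 transcript sequences of GENCODE M21 at chr9:119337826-119338025, with the intron in capitals and 20 bases of coding exon on each side in lower case.
Myd88-203 intron 3: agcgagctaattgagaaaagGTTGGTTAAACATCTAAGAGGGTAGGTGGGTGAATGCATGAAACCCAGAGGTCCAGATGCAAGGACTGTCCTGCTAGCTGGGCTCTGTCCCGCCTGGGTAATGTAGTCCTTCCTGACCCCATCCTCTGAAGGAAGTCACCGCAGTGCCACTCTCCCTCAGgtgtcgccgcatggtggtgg

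Junctions at which a coding exon runs on into an intron are shown for the same reason, for Myd88, Irak3, Irak4, Irak2 and Tollip. These are junctions of retained-intron transcripts only. Ticam2-202 also runs from exon 2 into intron 2 of its gene, and that junction is not shown. The processed transcript Traf6-202 runs from a coding exon into intron 3 of Traf6, and that junction is not shown either. Each junction shown is printed with 15 bases of coding exon in lower case and 15 bases of intron in capitals. The Myd88-203 junction at intron 2 lies at chr9:119338561-119338590 on the minus strand. Irak3-204 reads into intron 8 at chr10:120165078-120165107 on the minus strand and keeps 117 of its 18463 bases. Irak4-203 reads into intron 6 at chr15:94556677-94556706 on the plus strand and keeps 262 of 1558 bases. Irak2-208 reads into intron 3 at chr6:113665832-113665861 on the plus strand and keeps 163 of 4352 bases. Tollip-205 reads into intron 4 at chr7:141890687-141890716 on the minus strand and keeps 726 of 1104 bases.
Myd88-203 intron 2: ttgatgaccccctagGTAAGGGCCCAGTAC
Irak3-204 intron 8: tggcaacgtttccagGTAAATGACCTGAGA
Irak4-203 intron 6: taaagtaatggcaacGTAAGTGTAGATTTT
Irak2-208 intron 3: cccttctagacacagGTGCTCTCCTCCCCT
Tollip-205 intron 4: gtcatgtcctacacgGTGAGTTCACTGTCC

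All 6 junctions shown, intron 3 of Myd88 included, have GT as the first bases of the intron. Read from the start codon of the gene's first-numbered coding transcript, the frame of Myd88-203 runs for 162 of the 296 codons of Myd88-201 and meets a stop codon inside intron 2. The same reading of Irak3-204 gave 309 of 609 codons with the stop in intron 8, that of Irak4-203 gave 239 of 459 with the stop in intron 6, and that of Irak2-208 gave 151 of 622 with the stop in intron 3. Tollip-205 also carries part of intron 1, where the frame ends after 14 of 274 codons, but that stretch is an exon of the protein-coding Tollip-203 too, which gives the same reading from this start codon. These are readings of the annotated letters, and no protein was measured.

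**Figure D1:**
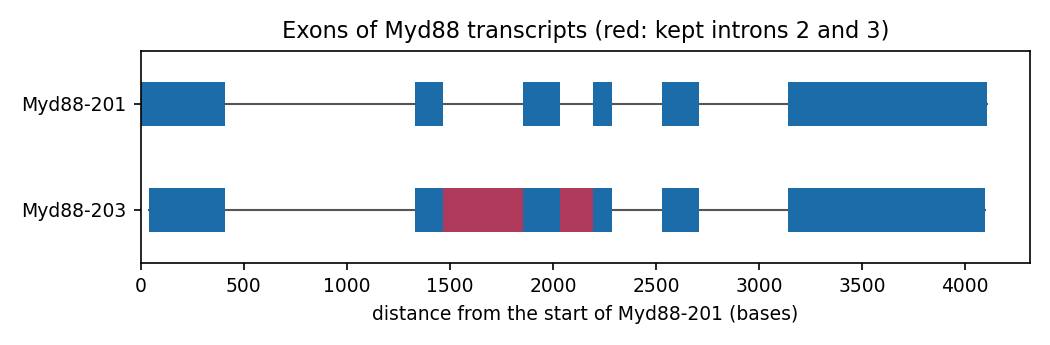
Exon maps of Myd88-201 and Myd88-203 drawn to scale against the distance in bases from the start of Myd88-201, with exons as blue boxes, spliced introns as lines and kept introns in red. Myd88-203 has 4 exons in place of 6, because introns 2 and 3 stay in the transcript.

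The libraries held 20196408 and 19588980 expected counts in replicates 1 and 2, so a gene with no count has an upper limit of 1.49e-05% and 1.53e-05% of a library. Their counts differed by more than sampling noise (chi-square per degree of freedom 85.9 over 14596 genes with at least 10 expected counts in both), so they are not 1 library deposited more than once. This does not show that they came from separate animals or cultures. Levels are given as TPM, in which counts are divided by transcript length and scaled to the same total in every library, so that genes can be compared. Protein-coding genes, which here and below leave out those of the mitochondrial genome, took 29.5% and 27.3% of all TPM. The cells carried their labelled identity: 10 of 10 macrophage markers reached 1 TPM in both libraries, with a summed level of 4434 and 4220 TPM. Of 23 markers of lymphocytes, neutrophils, dendritic, erythroid, stromal and endothelial cells, 1 reached it (Pecam1, 2.02 and 1.48 TPM), their sum was 4.83 and 3.54 TPM, and 10 had no count in either library, among them Cd3e, Cd3g and all 5 neutrophil markers.

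All 10 genes were present in the nucleoplasm at 1 TPM or more in both libraries. The same held for 22.4% of all annotated genes and 44.9% of protein-coding genes. At 5 TPM or more in both libraries there were 9 of the 10, against 30.9% of protein-coding genes. Their median level was 14.5 and 12.2 TPM, with a mean of 13.4 ± 1.64 (SD, n = 2). The corresponding median over 11370 detected protein-coding genes was 9.33 and 7.81 TPM, with a mean of 8.57 ± 1.07 (SD, n = 2).

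Among the adaptors, Myd88 stood well above the others. Myd88 (ENSMUSG00000032508.8, chromosome 9, 119335934 to 119341411, minus strand, GRCm38 as all gene positions here) was at 31.4 TPM in replicate 1 and 42.4 in replicate 2, from 1173 and 1759 expected counts. The mean was 36.9 ± 7.79 TPM (SD, n = 2), and replicate 2 was the higher. The authors' deposited interval for the level, whose coverage is not stated, was 28.5 to 32.3 TPM in replicate 1 and 38.6 to 42.8 in replicate 2. These intervals did not overlap, and neither did those of Ticam2, Irak3 and Traf6, which were lower in replicate 2. The share of all genes without such an overlap was not computed. Myd88 was above 81.4% and 88.8% of detected protein-coding genes.

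Ticam1, which encodes the TRIF adaptor and lies on chromosome 17 (56269319 to 56276786, minus strand), was at 7.92 and 8.19 TPM from 436 and 500 expected counts. On the TPM scale the libraries were close to each other, and the gene stood above 45.6% and 51.5% of detected coding genes. Myd88 was therefore 3.96-fold and 5.18-fold the level of Ticam1 on the TPM scale. The difference on the log2(TPM + 1) scale, used for all differences between genes below, was 1.86 and 2.24, with a mean of 2.05 ± 0.27 (SD, n = 2). Every Myd88 value lay above every Ticam1 value.

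The sorting adaptors had the opposite order, with the TRIF-arm member higher. Ticam2 (chromosome 18, 46557291 to 46574533, minus strand), which encodes TRAM, was at 16.5 and 13.99 TPM from 1133 and 1038 expected counts. Tirap (chromosome 9, 35184551 to 35200291, minus strand) was the lowest of the 10 genes, at 3.51 and 2.72 TPM from 271 and 225 expected counts. Ticam2 was 4.70-fold and 5.14-fold the level of Tirap, and the difference of Tirap minus Ticam2 was -1.96 and -2.01, with a mean of -1.98 ± 0.04 (SD, n = 2). This was much larger than the spread between libraries, but its size depended on the quantification: it was -1.27 in the kallisto-layout table, described below, rescaled to protein-coding genes. Ticam2 shares 838 of its exon bases, 14.5%, with Tmed7 on the same strand (18.8 and 15.9 TPM), so reads there could have been assigned to either gene.

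Over all transcripts, the kinase family was led by Irak2. Irak2 (chromosome 6, 113638467 to 113695026, plus strand), a Myddosome kinase, was at 40.7 and 48.1 TPM from 1202 and 1661 expected counts, with a mean of 44.4 ± 5.25 TPM (SD, n = 2). That placed it above 86.2% and 90.6% of detected coding genes. Irak4 (chromosome 15, 94543643 to 94581815, plus strand), the kinase that MyD88 binds first, was at 12.3 and 10.4 TPM from 638 and 557 expected counts. Irak2 exceeded Irak4 by 3.32-fold and 4.62-fold in TPM, a difference of Irak4 minus Irak2 of -1.88 ± 0.32 (SD, n = 2).

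Irak3 (chromosome 10, 120141648 to 120202130, minus strand), which encodes the inhibitory IRAK-M, was at 20.0 and 15.6 TPM from 905 and 684 expected counts. It lay between Irak2 and Irak4 in both libraries, with no overlap. Irak3 was 1.63-fold and 1.503-fold the level of Irak4, with a difference of Irak4 minus Irak3 of -0.60 ± 0.08 (SD, n = 2). Irak2 was 2.03-fold and 3.08-fold the level of Irak3, with a difference of 1.28 ± 0.40 (SD, n = 2). The relative gene Irak1 was at 29.5 ± 1.99 TPM (SD, n = 2), between Irak2 and Irak3 over all transcripts. Irak1 is named here outside the rule for named genes because it is the kinase that shares the Myddosome with Irak2. Its level over coding transcripts alone was not computed.

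The ubiquitin ligases downstream of each arm could not be ordered. Traf6 (chromosome 2, 101678429 to 101701669, plus strand), of the MyD88 arm, was at 12.5 TPM in replicate 1 and 8.04 in replicate 2, from 1226 and 807 expected counts. Traf3 (chromosome 12, 111166370 to 111267153, plus strand), of the TRIF arm, was at 7.69 and 8.24 TPM from 911 and 904 expected counts. Traf6 was higher in replicate 1, by 0.64 in log2, and level with Traf3 in replicate 2, at -0.03. The mean of 0.30 was smaller than its SD of 0.47 (n = 2), and its sign turned to -0.16 in the rescaled kallisto-layout table and to -0.11 over coding transcripts.

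Tollip (chromosome 7, 141874813 to 141918507, minus strand), the ubiquitin-binding adaptor that restrains IRAK signalling, was at 19.0 and 16.9 TPM from 1173 and 1145 expected counts. Its libraries overlapped those of Irak3, the other negative regulator. By mean TPM the order of all genes was Irak2, Myd88, Tollip, Irak3, Ticam2, Irak4, Traf6, Ticam1, Traf3 and Tirap. Of the 9 neighbouring pairs in this order, 3 had libraries that did not overlap: Myd88 above Tollip, Ticam2 above Irak4 and Traf3 above Tirap. The other 6 pairs overlapped. Within libraries, 2 of these 6 kept their order in both: Irak2 minus Myd88 was 0.36 and 0.18 in log2, and Irak3 minus Ticam2 was 0.26 and 0.15. The remaining 4 pairs turned between the libraries. From Irak2 down to Tirap the levels spanned 11.6-fold in replicate 1 and 17.7-fold in replicate 2. The place of Ticam2 above Irak4 depended on the measure. Over coding transcripts Ticam2 was at 12.5 and 10.1 TPM and Irak4 at 10.9 and 8.16, so their libraries overlapped. In the kallisto-layout values, described below, Irak4 ranked 5 and Ticam2 ranked 6 in both libraries.

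**Figure D2:**
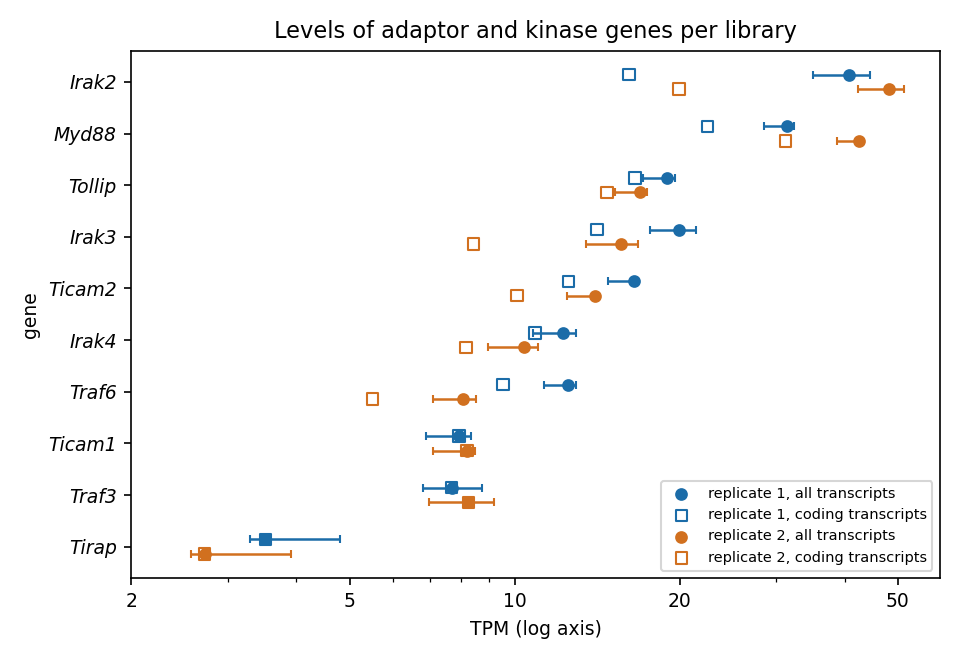
TPM on a log axis for each gene in replicate 1 (blue) and replicate 2 (orange), with filled circles for all transcripts, open squares for protein-coding transcripts and bars for the deposited interval around the posterior mean TPM. Irak2 and Myd88 lead and Tirap is lowest; the open square of Irak2 falls well below its circle, to 16.2 and 20.0 TPM.

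How a gene's reads were divided among its transcripts changed the picture at the top of this order. Over protein-coding transcripts alone, Irak2 was at 16.2 and 20.0 TPM, which is 39.8% and 41.5% of its total. Myd88 was at 22.5 and 31.2 TPM by the same measure and was then the highest of the 10 genes in both libraries. Over all transcripts Irak2 was 1.30-fold and 1.13-fold the level of Myd88, while over coding transcripts Myd88 was 1.39-fold and 1.56-fold the level of Irak2. The order of this pair thus depended on which transcripts were counted. Irak3 also fell, from 20.0 to 14.1 TPM in replicate 1 and from 15.6 to 8.42 in replicate 2, so that its libraries then overlapped those of Irak4. Irak4 minus Irak3 was -0.35 and -0.04 over coding transcripts, and its mean of -0.19 was smaller than its SD of 0.22 (n = 2). Irak2 minus Irak3 was 0.18 and 1.15, with a mean of 0.67 ± 0.69 (SD, n = 2), again within the spread. Irak4 minus Irak2 was -0.53 and -1.19, with a mean of -0.86 ± 0.47 (SD, n = 2).

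Transcript shares are given as shares of expected counts with 95% Wilson intervals, which cover counting error only. In the RSEM-layout table Myd88 had the largest noncoding share by counts, all of it on Myd88-203: 33.7% (31.1 to 36.5) and 31.5% (29.4 to 33.7). These intervals overlapped, and the remaining 66.3% and 68.5% lay on Myd88-201. In the kallisto-layout table the noncoding share of Myd88 was 36.3% and 32.4%, below that of Irak2. The annotated short coding transcript Myd88-202 (379 bases) had no count in either library. Among 6848 detected protein-coding genes with an annotated retained-intron transcript, the retained-intron share of Myd88 was higher than that of 74.3% and 73.3%. It stood above most of them but was not extreme.

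Irak2 had the most annotated transcripts of these genes, with 9, of which 6 are noncoding. Its main coding transcript Irak2-201 held 68.3% and 68.2% of counts, and Irak2-202, whose frame is 574 codons long, held 10.3% and 9.68%. Noncoding transcripts held 21.3% (19.1 to 23.7) and 22.1% (20.2 to 24.2) of counts but 60.2% and 58.5% of TPM. The kallisto-layout table, described below, gave 42.8% and 40.1% of its counts to them. Part of this gap lies with Irak2-207, singled out after its values were seen: a retained-intron transcript of 573 bases with 6.402% and 2.83% of counts but 27.0% and 11.6% of TPM. TPM divides counts by length, so a short transcript takes a larger share of TPM than of counts. The opposite strand of Irak2 carries Gm43963 (9.91 and 7.42 TPM) over 196 exon bases.

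The noncoding shares of Irak3 and Irak4 had counting intervals that did not overlap between the libraries. The share of all genes with such a difference was not computed, so the difference cannot be called particular to Irak3 and Irak4. Library counts in general differed by more than counting error (chi-square per degree of freedom 85.9), which is all that these intervals cover. Noncoding transcripts of Irak3 held 10.7% (8.87 to 12.9) of counts in replicate 1 and 22.0% (19.0 to 25.2) in replicate 2, and the intervals did not overlap. Most of it lay on Irak3-204, with 7.66% and 14.9%, while the coding Irak3-201 held 89.3% and 78.0%. For Irak4 the share was 3.93% (2.67 to 5.72) and 8.55% (6.56 to 11.2), all on Irak4-203, again higher in replicate 2 with no overlap of the counting intervals. The kallisto-layout table showed the same direction, with 12.1% and 30.04% for Irak3 and 6.35% and 13.0% for Irak4. Coding reads of Irak4 were split between Irak4-201, with 56.5% and 53.4%, and Irak4-202, with 39.6% and 38.1%, whose frames are 459 and 453 codons long.

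The noncoding share of Ticam2 was 12.4% (10.6 to 14.5) and 14.8% (12.8 to 17.1), on Ticam2-202, of whose 2010 bases 1588 lie in introns of Ticam2-201. Traf6 had 8.24% (6.83 to 9.91) and 11.1% (9.05 to 13.4), mainly on Traf6-202, a processed transcript with 8.15% and 10.6%. For Tollip, Tollip-205 held 4.55% and 4.79%. Traf3-205, the retained-intron transcript of Traf3, was listed at 0 of 911 and 0 of 904 counts, which allows a share of up to 0.329% and 0.332%. The kallisto-layout table gave it 77.4 and 51.3 counts, or 5.57% and 4.82% of the gene, so the assignment of these reads differed between the deposited quantifications. Ticam1, with 1 annotated transcript, and Tirap, with 7, have coding transcripts only, and Tirap-201 held 88.6% and 89.4% of Tirap counts, with 11.4% and 4.45% on Tirap-203. The main coding transcripts of the other genes were Ticam2-201 with 87.6% and 85.2%, Traf6-201 with 91.8% and 88.9%, Traf3-201 with 92.7% and 93.5% and Tollip-201 with 93.9% and 93.3%.

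Noncoding transcripts exceeded 50% of counts in both libraries for 0 of the 8 genes that have any, against 13.6% of 9157 detected protein-coding genes with such a transcript. By TPM, 1 of the 8 did (Irak2), against 19.4%. The median noncoding share of the 8 genes was 9.49% and 12.9% of counts, beside 15.3% and 15.8% over the 9157 genes. For retained-intron transcripts the median of the 7 genes that have one was 7.66% and 14.8%, beside 14.4% and 14.9% over 6848 genes.

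**Figure D3:**
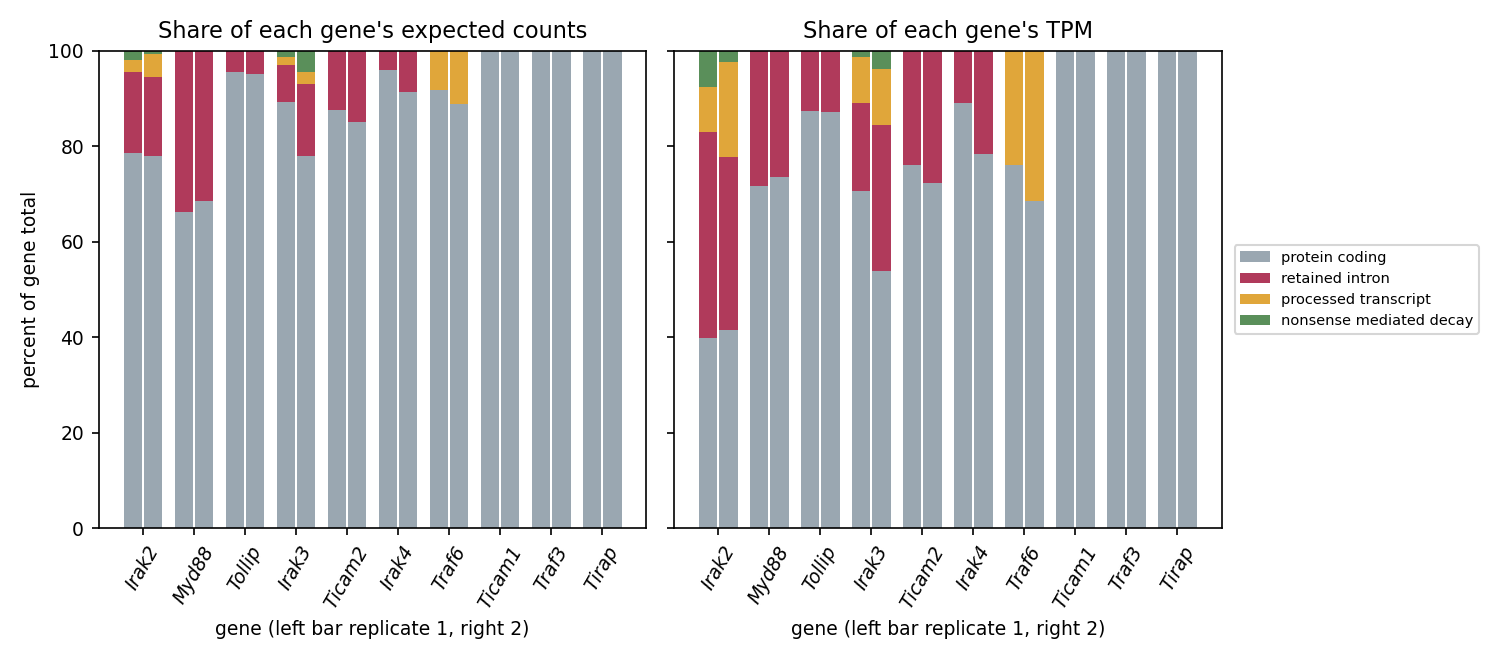
Percent of each gene's expected counts (left panel) and TPM (right panel) on protein-coding, retained-intron, processed and nonsense-mediated-decay transcripts, with replicate 1 as the left bar and replicate 2 as the right bar of each gene. All values are from the RSEM-layout tables, in which Myd88 has the largest noncoding share by counts (33.7% and 31.5%) and Irak2 by TPM (60.2% and 58.5%).

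Between the libraries, the genes did not move together. Ratios of replicate 2 over replicate 1 were computed on counts scaled to library size (CPM) and adjusted by the trimmed mean of M-values (TMM), with exact 95% intervals for counting error. Myd88 was higher in replicate 2, by 0.73 in log2 (0.62 to 0.84), and so was Irak2, by 0.61 (0.50 to 0.72). Ticam1 followed at 0.34 (0.15 to 0.53). Traf6 was lower in replicate 2, at -0.46 (-0.59 to -0.33), and Irak3 at -0.26 (-0.41 to -0.12). For these 5 genes the counting interval left out 0, and for the other 5 it held 0. The interval left out 0 for 55% of all 14596 genes, 27.4% higher and 27.6% lower, so this share was near the background.

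Past 2-fold there were 0 of the 10 genes in either direction, while 7.84% of 14596 genes passed, 4.88% higher and 2.95% lower in replicate 2. Past 1.5-fold there were 2, Myd88 and Irak2, both higher in replicate 2, where 24.8% of all genes passed in either direction and 13.8% upward. Under 4 ways of scaling the RSEM-layout values, Myd88, Irak2, Ticam1 and Traf3 were higher in replicate 2 in each, and Tirap, Traf6, Irak3 and Irak4 were lower in each. Ticam2 and Tollip changed direction with the scaling. The scalings by TMM, DESeq2 size factors and total count differ by the same amount for every gene, so they are not independent checks. For Traf3, Tirap and Irak4 the counting interval held 0. The share of all genes that kept their direction was not computed. With the kallisto-layout counts under the same TMM scaling, Irak3 turned to 0.05 and Irak4 to 0.01, while the other genes named with a direction kept it. On unscaled TPM the median of all detected genes shifted by -0.28 in log2 between the libraries, against 0.00 after TMM. Myd88 shares 290 exon bases, 11.3% of its own, with Acaa1a on the opposite strand, which was at 28.3 and 41.7 TPM and thus also higher in replicate 2. Whether the counting used strand is not given in the sources used here, and the part of this overlap in the Myd88 difference was not tested. In a bulk sample, fewer cells carrying an RNA and less of it per cell cannot be told apart.

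**Figure D4:**
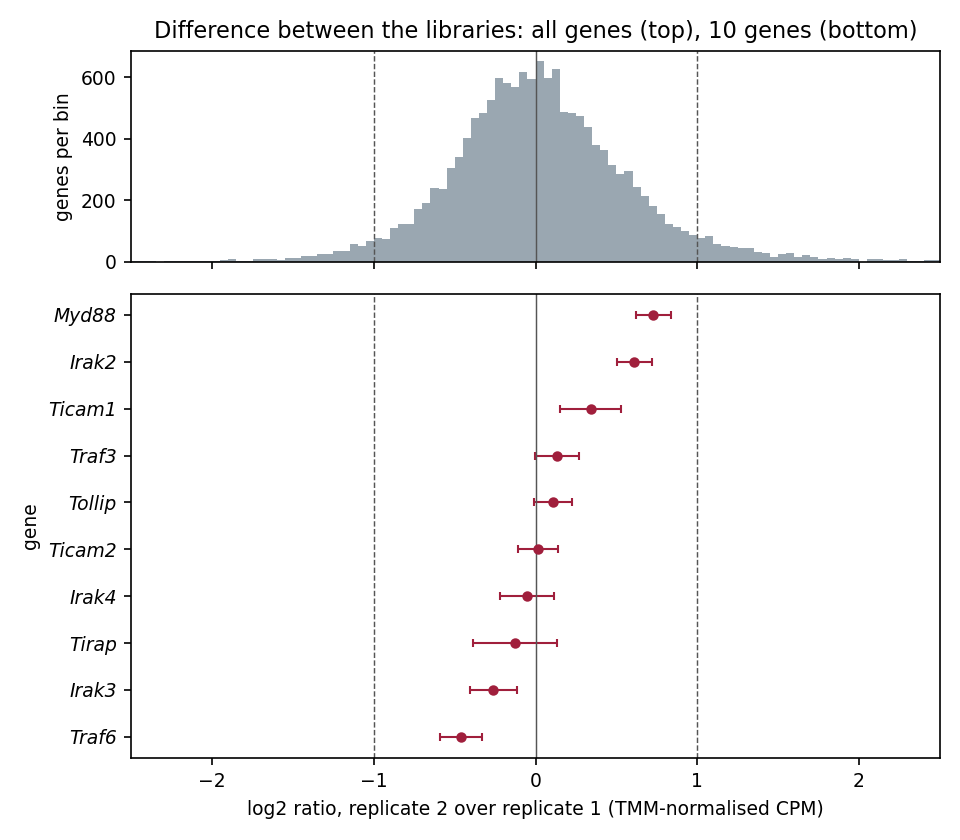
The log2 ratio of replicate 2 over replicate 1 (TMM-normalised CPM), as a histogram of all detected genes (top; 40 of 14596 genes lie beyond the axis) and as points with 95% counting intervals for the 10 genes (bottom). Dashed lines mark 2-fold; Myd88 at 0.73 and Traf6 at -0.46 are the extremes, and all 10 points lie inside the lines.

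A second deposited quantification, in the layout of kallisto, allowed the levels to be checked. It gave 22.8% and 5.27% of TPM to protein-coding genes, so both tables were rescaled to these genes before comparison. After rescaling, 0 of the 10 genes differed by more than 2-fold in both libraries, against 5.71% of detected coding genes that were higher in the kallisto-layout table and 0.167% that were lower. Tirap differed most: it was higher there by 0.75 and 0.48 in log2, from 931 and 519 estimated counts. Irak2 was also higher, by 0.52 and 0.45, whereas Ticam1 was at -0.41 and -0.45 and Myd88 at -0.37 and -0.35. These shifts widened the lead of Irak2 over Myd88 to 2.41-fold and 1.98-fold. The median over the 10 genes was -0.26 and -0.09, beside -0.05 and -0.01 over detected coding genes.

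**Figure D5:**
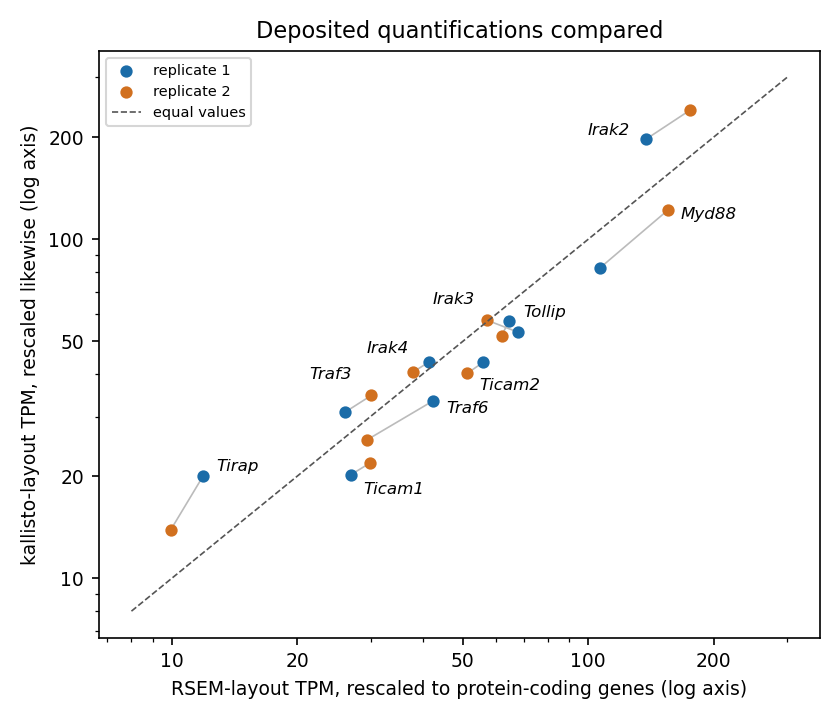
TPM of each gene in the RSEM-layout table (horizontal) and in the kallisto-layout table (vertical), both rescaled to protein-coding genes and on log axes, for replicate 1 (blue) and replicate 2 (orange), joined by a line per gene. Tirap and Irak2 lie above the dashed line of equal values, and Myd88 and Ticam1 below it.

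The rest of the pathway was mostly present too. Of 53 listed genes around these 10, 48 reached 1 TPM in both libraries, with a median of 34.9 and 33.2 TPM. Upstream, 8 of 8 receptors and receptor-proximal genes reached it, from Unc93b1, the chaperone of endosomal Toll-like receptors, at 345 ± 53.9 TPM (SD, n = 2, as for all values in this paragraph) and Cd180, a TLR4 homologue, at 282 ± 26.8 TPM, down to the TLR4 co-receptor Ly96 at 17.6 ± 6.84 and the adaptor Scimp at 1.89 ± 1.26 TPM. Among IRAK and TRAF relatives 6 of 7 did, led by Traf1 at 65.3 ± 1.48 and Traf7 at 35.3 ± 14.1 TPM, with Traf4 at 1.52 ± 0.0495 and Irak1bp1 at 0.440 ± 0.297 TPM at the foot. The ubiquitin machinery had 9 of 10, with the ligases Birc3 at 105 ± 0.870 and Peli1 at 65.0 ± 4.38 TPM highest, and Peli2 at 5.75 ± 0.354 and Peli3 at 1.04 ± 0.163 TPM lowest.

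All 11 of the 11 downstream kinase-complex genes reached 1 TPM. The IRF3 kinases Ikbke, at 337 ± 82.9 TPM, and Tbk1, at 81.7 ± 14.1 TPM (SD, n = 2), were the highest. Tab1, at 8.41 ± 0.509 TPM, and Tab3, at 3.98 ± 1.22 TPM, which encode partners of the kinase TAK1, were the lowest. Of 12 inhibitors and modulators 9 reached it, with Trafd1 at 279 ± 106 TPM and the A20 gene Tnfaip3 at 199 ± 3.59 TPM on top. Il1rl1 at 0.0400 TPM and Sarm1 at 0.005 TPM (means) were close to 0. All 5 of the 5 transcription factors reached 1 TPM, with Irf7 at 439 ± 220 and Irf5 at 53.2 ± 8.07 TPM highest and Irf3 at 40.8 ± 4.44 and Rela at 16.2 ± 0.205 TPM lowest.

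Other overlaps on the opposite strand touch Irak4 (Twf1, 395 exon bases, at 32.8 and 22.16 TPM) and Irak3 (Tmbim4, 192 exon bases, at 50.85 and 51.19 TPM). Tirap is overlapped by Gm39318 (446 exon bases, with 0 and 3.81 expected counts) and by Srpr (39 exon bases, at 21.75 and 20.89 TPM). Irak3 is also overlapped by Gm47009 (28 exon bases, at 2.81 and 1.79 TPM). Their part in the levels was not tested.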

How the data were processed

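Total RNA-seq libraries of the nucleoplasmic fraction were analysed from the deposited tables. Per the file headers and notes, the authors aligned reads to mm10 with GENCODE M21 transcripts and deposited expected counts and TPM per gene and transcript in the layout of RSEM, with interval bounds for the posterior mean TPM. Another deposited table, laid out as kallisto writes it and quantified without alignments, gives each transcript's estimated counts and TPM. The sources used here do not give program versions, the strand setting or the coverage of the intervals.

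Levels are the deposited TPM; log2 differences used log2(TPM + 1). Replicate ratios used expected counts, rounded to whole numbers for scaling factors and intervals only, over genes with at least 10 in both libraries, scaled by TMM (edgeR 4.0.16, R 4.3.3); DESeq2 1.42.0 size factors were an alternative. Other steps ran in Python 3.11.15 with pandas 2.3.3 and scipy 1.17.1. Only the 2-fold call, with median centring in place of TMM, and a share of counts were tried on simulated data. Those data held counting error alone, without the wider spread between the real libraries. Wilson and exact 95% intervals and the limit of 3 counts for a count of 0 cover counting error only, and treat estimated counts as whole reads. Transcript classes, sequences and overlaps come from GENCODE M21 (GRCm38).

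All 10 genes are described. Of the pathway list, the genes with the 2 highest and 2 lowest mean TPM in each sublist are named, and of the transcripts those with at least 10% of a gene's counts in either library. Traf3-205, Irak4-203, Tollip-205, Irak2-207, Irak2-208, Tollip-203 and Myd88-202 were named after their values were seen, as were Irak1 and the overlapping genes. The genes and lists were chosen with earlier results of these data known. With 1 group, no comparison between conditions was made.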

Additional observations from a re-analysis of the deposited data

How the results depend on the processing

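No paired analysis was possible because the series has 1 group. Leaving out each library in turn gave 1.86 to 2.24 for Myd88 minus Ticam1, -2.01 to -1.96 for Tirap minus Ticam2, -0.032 to 0.64 for Traf6 minus Traf3, -0.66 to -0.54 for Irak4 minus Irak3, 0.99 to 1.56 for Irak2 minus Irak3 and -2.11 to -1.65 for Irak4 minus Irak2, all in log2; with 1 library left these are values with no spread. The replicate ratio itself cannot be computed from 1 library.

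Over coding transcripts alone the same differences were 1.60, -1.58, -0.11, -0.19, 0.67 and -0.86, so Traf6 minus Traf3 turned. In the kallisto-layout table, Tirap minus Ticam2 was -0.91, Traf6 minus Traf3 was -0.084, Irak4 minus Irak3 was -0.31 and Irak2 minus Irak3 was 1.78. After rescaling that table to protein-coding genes they were -1.27, -0.16, -0.39 and 1.96, and Irak4 minus Irak2 was -2.35. Tirap minus Ticam2 was also -1.75 with the posterior mean TPM, -2.20 with rescaled TPM and -2.26 with a pseudocount of 0.1. Rescaling multiplies all genes of a library by the same number and leaves fold ratios unchanged. It therefore moves these differences only through the pseudocount of 1. The cause of the shifts between quantifications and transcript sets was not tested. The other planned settings moved no difference by more than its SD, and 5 of the 6 differences kept their sign in every setting run.

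The median TPM of the 10 genes was 6.03 in the kallisto-layout table, 46.9 after rescaling to protein-coding genes and 41.9 with both, since the total it is relative to changes. Of 10 places in the order of levels, 6 were kept in the kallisto-layout table, 3 after rescaling it, and 6 to 8 with a library left out. Without rescaling, the kallisto-layout values put 9 genes at 1 TPM or more in both libraries, with Tirap at 0.734 in replicate 2. At 1.5-fold 2 genes differed between replicates in place of 0, and by TPM 1 gene had over 50% noncoding in place of 0. Depth limits Tirap most, with 271 and 225 counts, and the noncoding share of Irak4.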
